A study of Mus musculus with 24 samples.

Results

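Secreted and membrane proteins are folded in the endoplasmic reticulum (ER), where chaperones bind unfolded chains, lectins hold newly glycosylated chains and disulfide isomerases make and reshuffle disulfide bonds. When unfolded protein builds up, the ER sensors IRE1, PERK and ATF6 start the unfolded protein response (UPR), in which IRE1 splices *Xbp1* mRNA and the spliced XBP1 protein, with cleaved ATF6, drives transcription of the chaperone genes. An axotomized sensory neuron rebuilds its axon with membrane and secretory proteins that are made in this compartment of the cell body. The expression of 10 genes of this system was followed in mouse dorsal root ganglia (DRGs) after sciatic nerve lesion: the chaperones *Hspa5* (BiP) and *Hsp90b1* (GRP94), the lectin chaperones *Calr* and *Canx*, the disulfide isomerases *Pdia3*, *Pdia4* and *Pdia6*, *Herpud1* (ER-associated degradation), the BiP co-chaperone *Dnajb9* (ERdj4) and the transcription factor *Xbp1*. They were taken by gene name from the array annotation, which gave 10 of 27398 gene names and 19 probes. Of these genes 5 had 1 probe and 5 had more than 1, and all 19 probes were well above background in all 24 samples.

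Adult male *Nfil3* KO mice, which carry a germline deletion of the bZIP transcription factor NFIL3 made by crossing lox mice with mice that express Cre under a CMV promoter, were compared with wildtype (WT) littermates on a C57BL/6J background. L4 and L5 DRGs were collected at day 2 and day 5 after the lesion, and control DRGs came from the non-injured side. The labels do not tell which control and lesioned DRGs came from the same animals. There were 6 groups (WT control, WT day 2, WT day 5, KO control, KO day 2, KO day 5) of 4 samples each, 24 in all, on 12 Agilent arrays of 3 slides with 2 samples per group and dye. The groups were not balanced over slides. WT day 2 had no sample on slide 1, WT day 5 none on slide 2 and KO day 5 none on slide 3. Differences that involve these groups, such as KO versus WT at day 5, are in part confounded with slide. The labels call the samples DRG neurons, but whole ganglia were dissected, and markers of neurons, satellite glia, Schwann cells, macrophages and fibroblasts were all well above background in all groups. In bulk tissue of this kind, a change in the number of cells of a type and a change of RNA per cell cannot be told apart.

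As a check of the labels, *Nfil3* was measured first. Its brightest probe averaged 8.73 ± 0.27 in WT control, 10.59 ± 0.18 in WT day 2 and 10.99 ± 0.20 in WT day 5 DRGs (log2 intensity, SD, n = 4 each), and was well above background in all of these samples. In KO DRGs the group means were 4.71 ± 2.05, 4.71 ± 1.40 and 4.47 ± 1.54, and 5 of 12 samples were well above background. The highest KO value, 7.66, belonged to KO control replicate 4. Its title gives day 0, as do the titles of all controls, whereas a further label of this sample gives day 5. Between 55.2% and 72.8% of the spots were well above background per sample, no spot was saturated, and 2 samples of a group correlated at 0.977 to 0.995 over genes. Levels are given below as normalized log2 intensities of the brightest probe of a gene. They depend on the probe as well as on the mRNA, so that levels are compared between samples and not between genes.

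The regulatory sequences of these genes are shown first, because they do not depend on the array data. The classical ER stress response element (ERSE) is CCAAT, followed by 9 bases of any kind and CCACG; its CCAAT end is bound by NF-Y and its CCACG end by ATF6 or XBP1. In the 250 bases before the annotated start (RefSeq, GRCm38.p6; all 10 genes had a window), an exact ERSE on either strand was found in 5 of the 10 genes, compared with 37 of 32851 windows of the same length in the whole table (0.113%). *Hsp90b1* held 2. *Herpud1* held the shorter ERSE-II, ATTGG and CCACG 1 base apart, which occurred in 10 windows of the table (0.0304%). ERSE-II is built from the same blocks, ATTGG being the reverse complement of CCAAT. Chaperone genes are already known as targets of ATF6 and XBP1, so these shares describe the windows and are not a test of enrichment. The stretches that hold these elements are printed in the direction of the gene, with the fixed letters of the element in capitals. On the reverse strand it reads CGTGG and then ATTGG.

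Hspa5 (chr2:34772005-34772063, + strand): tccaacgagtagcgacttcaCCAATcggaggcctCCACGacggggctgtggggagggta
Hsp90b1, distal (chr10:86705618-86705676, - strand): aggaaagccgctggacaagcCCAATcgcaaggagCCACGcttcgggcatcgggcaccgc
Hsp90b1, proximal (chr10:86705513-86705571, - strand): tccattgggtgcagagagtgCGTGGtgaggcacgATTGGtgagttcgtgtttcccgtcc
Calr (chr8:84847055-84847113, - strand): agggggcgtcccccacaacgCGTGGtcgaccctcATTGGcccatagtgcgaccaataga
Canx (chr11:50325780-50325838, - strand): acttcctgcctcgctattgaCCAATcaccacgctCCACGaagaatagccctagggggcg
Pdia6 (chr12:17266471-17266529, + strand): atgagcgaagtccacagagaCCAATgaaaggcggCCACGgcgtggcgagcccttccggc
Herpud1, ERSE-II (chr8:94386357-94386407, + strand): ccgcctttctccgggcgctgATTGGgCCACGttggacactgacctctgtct

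The element began 65 bases before the start in *Hspa5*, 98 in *Pdia6*, 145 in *Canx*, 162 in *Calr*, 52 in *Herpud1* and, for the distal one, 212 in *Hsp90b1*. No exact match of these elements lay in the windows of *Xbp1*, *Pdia3*, *Pdia4* and *Dnajb9*. The UPR element core TGACGTGG (0.563% of all windows) and the NFIL3 sites TTACGTAA (0.113%) and TTATGTAA (0.819%), searched on both strands, were found in none of the 10 windows. A match describes the letters in this window only, and binding was not measured.

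The question of the first comparison was which of these genes changed after the nerve lesion. At day 2, over both genotypes, *Xbp1* and *Pdia6* rose and no member fell. At day 5 *Xbp1* was still raised, *Hsp90b1* had fallen, and *Pdia6* differed from its controls by 0.02 on the log2 scale, without a call. The remaining 7 members, among them *Hspa5*, were called in neither comparison, and the largest difference of a member in a comparison with controls was 1.46-fold (*Xbp1* at day 5 in WT). The 2 of 10 members called at day 2 compare with 22.3% of all 27398 genes called in the same comparison, and the 2 of 10 at day 5 with 23.1%, so that the share of the members called was near that of all genes at both days. Of all genes 9.40% rose and 12.9% fell at day 2, and 10.1% rose and 13.0% fell at day 5, while of the members 2 rose at day 2, and 1 rose and 1 fell at day 5. All members were well above background in all samples, and among the 14555 genes of which this was true 35.0% were called at day 2 and 36.9% at day 5. The median absolute log2 difference was 0.066 over the members and 0.20 over those genes at day 2, and 0.098 and 0.19 at day 5, which is a description with no test. The tests are limma's moderated tests on all 41174 probes with Benjamini-Hochberg adjustment, and a gene is called by its brightest probe at an adjusted p under 0.05.

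**Figure D1:**
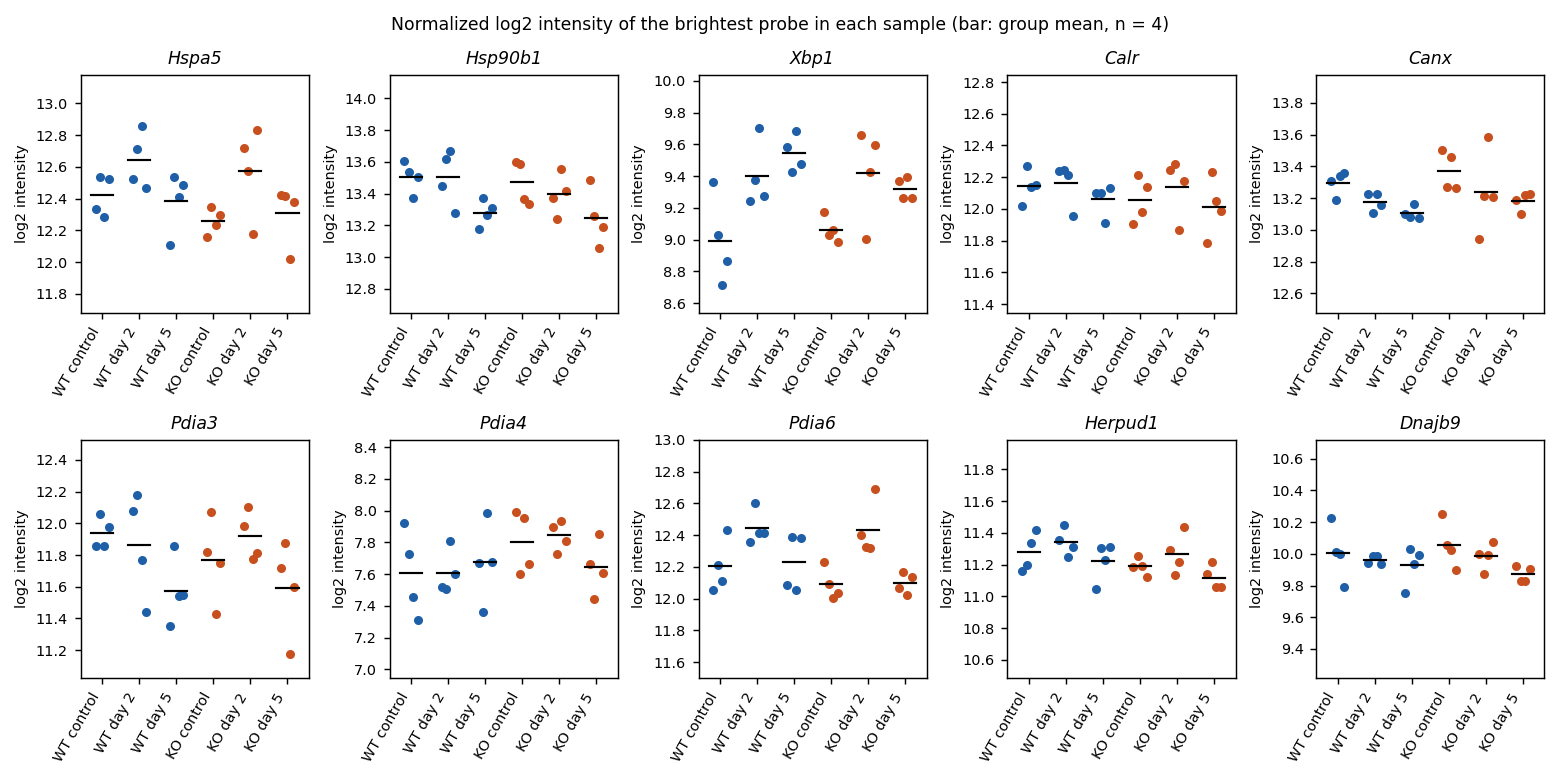
Normalized log2 intensity of the brightest probe of each of the 10 genes in each sample, with WT in blue and KO in orange; bars are group means (n = 4), and every panel spans the same range of log2 units. In *Xbp1* the 4 WT day 5 samples lie between 9.43 and 9.69 and the 4 WT control samples between 8.71 and 9.36; most other panels show overlapping groups.

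*Xbp1* encodes the transcription factor that IRE1 activates by splicing. The array has 1 probe for it (mm9, chr11:5424970-5425029), which gave 1 level for the mRNA, and splicing was not measured. Its log2 level was 9.36, 9.03, 8.71 and 8.86 in the WT control samples, 9.24, 9.38, 9.70 and 9.27 at day 2 and 9.58, 9.43, 9.69 and 9.48 at day 5. All WT day 5 samples lay above all WT controls, whereas at day 2 a single control, replicate 1, reached into the lesion samples. In KO DRGs the levels were 9.18, 9.03, 9.06 and 8.98 in controls, 9.66, 9.01, 9.42 and 9.59 at day 2 and 9.37, 9.26, 9.39 and 9.26 at day 5. All KO day 5 samples lay above all KO controls, and at day 2 replicate 2 stayed at the control level. The share of all genes whose groups did not overlap is not given. Such separations, here and in the members below, are thus a description.

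Over both genotypes *Xbp1* was 1.30-fold higher at day 2 (log2 difference 0.38, SE 0.10, adjusted p = 0.00907) and 1.32-fold higher at day 5 (0.40, SE 0.10, adjusted p = 0.00533), with 7 of 8 and 8 of 8 lesion samples above the mean of the controls of their genotype. Within WT the difference was 0.41 at day 2 (SE 0.14, adjusted p = 0.0799) and 0.55 at day 5 (SE 0.14, adjusted p = 0.0127), and within KO it was 0.36 (adjusted p = 0.122) and 0.26 (adjusted p = 0.312). The WT and KO changes are not shown to differ, since the difference between them was -0.05 at day 2 (95% interval -0.47 to 0.37) and -0.29 at day 5 (-0.71 to 0.13). Without WT control replicate 3, the lowest sample, the WT day 5 difference was 0.46 with an adjusted p of 0.0589. On slides 1, 2 and 3 taken singly the day 5 difference was 0.31, 0.25 and 0.58, and the day 2 difference was 0.22, 0.40 and 0.54. The day 5 samples were all KO on slide 2 and all WT on slide 3, against controls of both genotypes. These 2 values therefore mix lesion and genotype. The day 2 value of slide 1 rests on 1 lesion sample, KO day 2 replicate 3, against 3 controls of both genotypes. In order of their means the groups ran from WT control (8.99) and KO control (9.06) to KO day 5 (9.32), WT day 2 (9.40), KO day 2 (9.42) and WT day 5 (9.54). Only the step from KO control to KO day 5 was larger than the pooled SD of the groups, 0.20.

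*Pdia6* is a protein disulfide isomerase that works on clients of BiP, and its promoter is one of those with an ERSE printed above. Its brightest probe (mm9, chr12:17290963-17291022) gave 12.06, 12.21, 12.11 and 12.43 in WT controls, 12.36, 12.60, 12.41 and 12.41 at WT day 2 and 12.09, 12.39, 12.05 and 12.38 at WT day 5. The KO samples gave 12.23, 12.09, 12.004 and 12.03 in controls, 12.40, 12.32, 12.32 and 12.69 at day 2 and 12.07, 12.17, 12.02 and 12.14 at day 5. At day 2 all KO samples lay above all KO controls, and the WT groups overlapped through WT control replicate 4 alone.

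The rise of *Pdia6* at day 2 was 1.23-fold over both genotypes (log2 difference 0.29, SE 0.08, adjusted p = 0.00858), and 8 of 8 samples lay above the mean of their controls. It was 0.24 in WT (SE 0.11, adjusted p = 0.187) and 0.34 in KO (SE 0.11, adjusted p = 0.0474), and the difference of the 2 changes was 0.10 (95% interval -0.22 to 0.42). At day 5 the difference over both genotypes was 0.02 (SE 0.08, 95% interval -0.14 to 0.18). Between day 2 and day 5 the level differed by -0.22 in WT (adjusted p = 0.556) and by -0.33 in KO (adjusted p = 0.214), neither of which was called. Of its 4 probes a second one (chr12:17277232-17277291) also rose at day 2, by 0.30 (SE 0.07, adjusted p = 0.00502). The other 2 gave 0.18 (adjusted p = 0.0591) and 0.11 (adjusted p = 0.639). The call in KO alone was lost when any 1 of 14 of the 24 samples was left out. These were WT control replicates 2 and 3, WT day 2 replicates 1, 3 and 4, KO control replicates 2, 3 and 4, KO day 2 replicates 1 and 4 and all 4 KO day 5 replicates. The difference was 0.32 without KO control replicate 4 (adjusted p = 0.105) and 0.26 without KO day 2 replicate 4 (adjusted p = 0.162). Within slides 1, 2 and 3 the day 2 difference was 0.22, from 1 lesion sample, 0.26 and 0.34.

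*Hspa5* encodes BiP, the HSP70 chaperone of the ER lumen that binds unfolded chains and holds the UPR sensors inactive. The levels of its probe (mm9, chr2:34631630-34631689) were 12.34, 12.54, 12.28 and 12.52 in WT controls, 12.53, 12.71, 12.86 and 12.47 at day 2 and 12.11, 12.54, 12.41 and 12.49 at day 5. In KO samples they were 12.16, 12.35, 12.23 and 12.30 in controls, 12.72, 12.57, 12.17 and 12.83 at day 2 and 12.42, 12.42, 12.02 and 12.38 at day 5. The groups overlapped in every comparison, and at day 2 KO replicate 3 stood among the controls while 7 of 8 samples lay above the mean of their controls.

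The *Hspa5* difference at day 2 over both genotypes was 0.27 (SE 0.10) with an adjusted p of 0.0548, just outside the threshold. It was 0.22 in WT (adjusted p = 0.387) and 0.32 in KO (adjusted p = 0.161). At day 5 it was 0.01 (SE 0.10, 95% interval -0.19 to 0.21). Its call at day 2 depended on the processing: the adjusted p was below 0.05 in 9 of 14 other settings and ranged from 0.0305 to 0.109, and without KO day 2 replicate 3 it was 0.00777 (difference 0.34). It was also below 0.05 without WT day 2 replicate 4 (0.0419), WT day 5 replicate 1 (0.0456) or KO day 5 replicate 3 (0.0442). With slide as a block the difference was 0.21 (adjusted p = 0.0851), and within slides 1, 2 and 3 it was -0.07, from 1 lesion sample, 0.24 and 0.31.

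**Figure D2:**
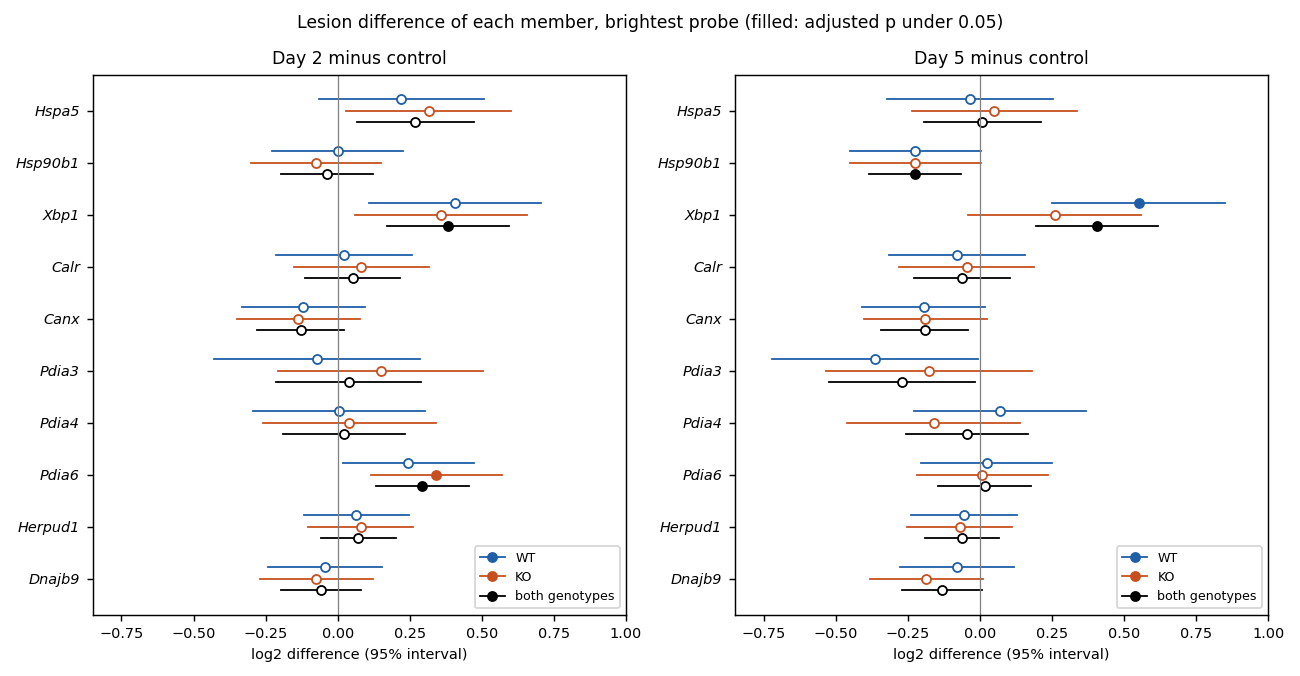
Log2 difference between lesioned and control DRGs at day 2 (left) and day 5 (right) for each gene, in WT (blue), KO (orange) and over both genotypes (black); points are estimates of the brightest probe, lines 95% intervals, and filled points have an adjusted p under 0.05. At day 2 *Xbp1* and *Pdia6* stand to the right of 0; at day 5 *Xbp1* stands at 0.40 and *Hsp90b1* at -0.22.

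*Hsp90b1* encodes GRP94, the HSP90 chaperone of the ER lumen. It was 13.60, 13.53, 13.37 and 13.50 in WT controls, 13.45, 13.62, 13.67 and 13.27 at day 2 and 13.17, 13.37, 13.26 and 13.31 at day 5 (mm9, chr10:86153770-86153829). The highest WT day 5 sample (13.3722) was level with the lowest WT control (13.3723), so that these groups were not clearly apart. In KO the levels were 13.60, 13.59, 13.37 and 13.33 in controls, 13.37, 13.24, 13.55 and 13.42 at day 2 and 13.49, 13.26, 13.06 and 13.19 at day 5, with overlap between the groups.

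Over both genotypes *Hsp90b1* fell by 0.22 on the log2 scale at day 5 (SE 0.08, 0.856-fold, adjusted p = 0.0401), with 7 of 8 samples below the mean of their controls, and by the same 0.22 in each genotype (adjusted p = 0.221 in WT and 0.228 in KO). At day 2 the difference was -0.04 (95% interval -0.20 to 0.12). The equal fall at day 5 held for the brightest probe only, since the second probe gave -0.22 in WT and -0.06 in KO. Over both genotypes the second probe of the gene gave -0.14 at day 5 (SE 0.11, adjusted p = 0.415), the same sign without a call. The call was also lost in 3 of 14 other settings and when any 1 of 11 of the 24 samples was left out, namely WT control replicates 1, 2 and 4, WT day 5 replicates 1, 3 and 4, KO control replicates 1 and 2 and KO day 5 replicates 2, 3 and 4. Over all 24 such fits the difference lay between -0.26 and -0.19, and the highest adjusted p was 0.0948, without KO day 5 replicate 3. Within slides 1, 2 and 3 the day 5 difference was -0.28, -0.21 and -0.15, with only KO lesion samples on slide 2 and only WT ones on slide 3.

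The lectin chaperones bind the sugar chains of new glycoproteins, calnexin in the membrane and calreticulin in the lumen, and *Pdia3* (ERp57) is the disulfide isomerase that works with them. *Canx* at day 5 was -0.19 over both genotypes (SE 0.07, adjusted p = 0.0637). All 4 WT day 5 samples (13.07 to 13.16) lay below the WT controls (13.19 to 13.36), and all 4 KO day 5 samples (13.10 to 13.23) below the KO controls (13.26 to 13.50), so that 8 of 8 samples were lower than the mean of their controls. Its difference was called in 6 of 14 other settings, and the other probes of the gene gave -0.08 and -0.04. *Pdia3* at day 5 was -0.27 (SE 0.12, adjusted p = 0.128), with overlap in KO. In WT the day 5 samples (11.35 to 11.85) all but met the controls (11.86 to 12.06), at 11.8547 against 11.8577. *Calr* gave 0.05 at day 2 (SE 0.08) and -0.06 at day 5 (SE 0.08), neither called, and its second probe gave 0.27 (adjusted p = 0.144) and 0.16 (adjusted p = 0.471).

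The last 3 members were not called at either day. *Pdia4*, a further disulfide isomerase, gave 0.02 at day 2 (95% interval -0.19 to 0.23) and -0.05 at day 5 (-0.26 to 0.17). *Herpud1*, a membrane protein of the ER-associated degradation complex whose promoter has the ERSE-II, gave 0.07 (-0.06 to 0.20) and -0.06 (-0.19 to 0.07). *Dnajb9*, which brings BiP to IRE1 and to degradation clients, gave -0.06 (-0.20 to 0.08) and -0.13 (-0.27 to 0.01). For *Herpud1* these intervals leave room for a change of at most 0.20 on the log2 scale at day 2, and for *Pdia4* of at most 0.23. At day 5 they reach -0.26 for *Pdia4* and -0.27 for *Dnajb9*. For *Dnajb9* at day 5, 7 of 8 samples lay below the mean of their controls and all 3 probes were below 0 (-0.14 to -0.11).

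The 5 genes with an ERSE did not form 1 pattern at day 2. *Pdia6* (0.29) was called, *Hspa5* (0.27) was near the threshold, and *Calr* (0.05), *Hsp90b1* (-0.04) and *Canx* (-0.13) were not called. Of the members called, *Xbp1* had no exact ERSE in its window. In the fixed lists of further ER genes 5 had an ERSE, and 0 were called at day 2, beside 22.3% of all genes, a share at which 5 genes are too few to read anything from a count of 0. They were *Dnajc3* (-0.10), *Creld2* (0.14), *Ero1lb* (-0.05), *Syvn1* (-0.02) and *Derl3* (-0.18). A window was available for 11 of 14 UPR sensors and transcription factors and for 27 of 34 other folding helpers. It was available for 16 of 20 genes of ER-associated degradation and 18 of 22 of the translocon and N-glycosylation. The remaining list genes were not searched, so that further ones may hold an ERSE.

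**Figure D3:**
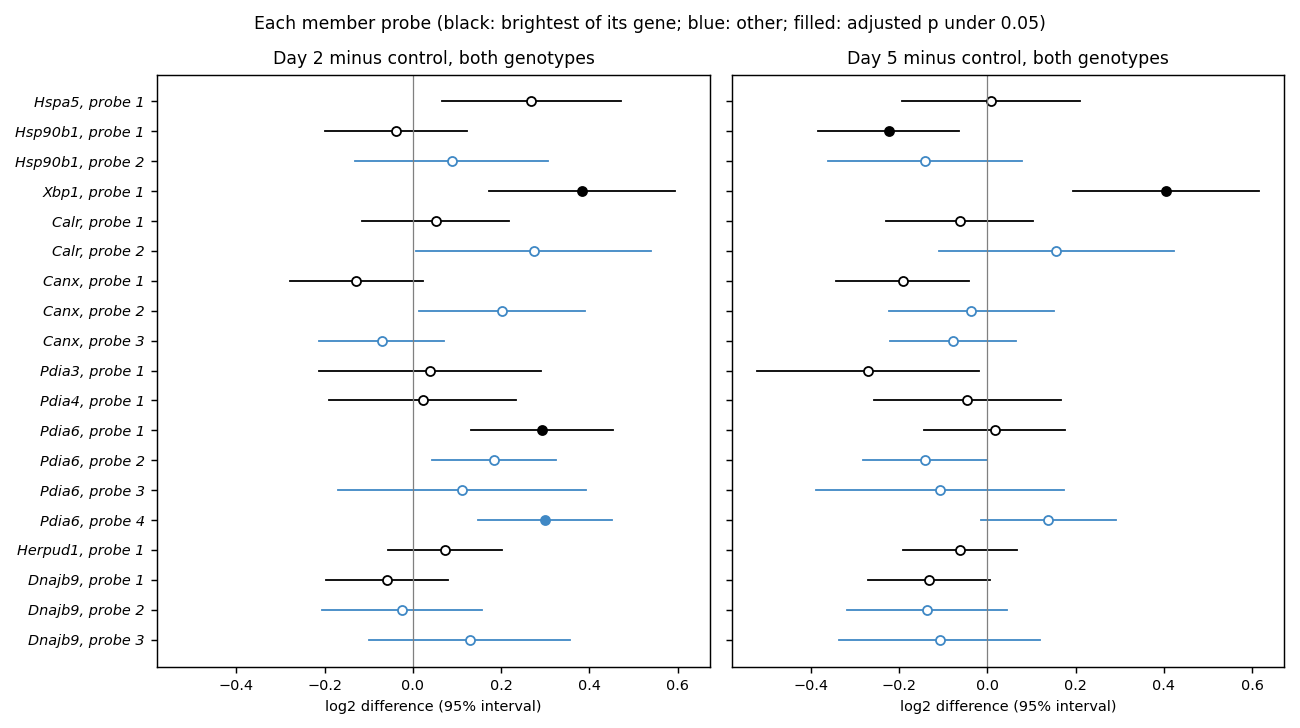
Log2 difference from control over both genotypes for each of the 19 probes, at day 2 (left) and day 5 (right); black points are the brightest probe of a gene, blue points its other probes, lines 95% intervals, and filled points have an adjusted p under 0.05. The 4 *Pdia6* probes all lie above 0 at day 2, between 0.11 and 0.30, while the *Canx* probes lie on both sides of 0.

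Probes of a gene were in part on different sides of 0. At day 2 this was so for *Hsp90b1* (-0.04 and 0.09), *Canx* (-0.13, -0.07 and 0.20) and *Dnajb9* (-0.06, -0.02 and 0.13), none of them called, and at day 5 for *Calr* (-0.06 and 0.16) and *Pdia6* (from -0.14 to 0.14). Counted by probes, 3 of 19 were called at day 2 (2 of *Pdia6* and 1 of *Xbp1*) and 2 of 19 at day 5, beside 21.4% and 22.2% of all 41174 probes.

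A second comparison asked whether the loss of *Nfil3* altered these genes. No member was called between KO and WT in control DRGs, at day 2 or at day 5, and 0 of 10 had an unadjusted p under 0.05 in any of the 3 comparisons by limma. Among all genes 0 (0%), 2 (0.00730%) and 3 (0.0109%) were called, and 463, 1068 and 650 had an unadjusted p under 0.05. The KO minus WT differences ran from -0.17 (*Pdia3*) to 0.20 (*Pdia4*) in controls, from -0.11 (*Hsp90b1*) to 0.23 (*Pdia4*) at day 2 and from -0.22 (*Xbp1*) to 0.08 (*Canx*) at day 5. For *Hspa5* the difference was -0.16 in controls (95% interval -0.45 to 0.13), -0.07 at day 2 (-0.35 to 0.22) and -0.08 at day 5 (-0.36 to 0.21). For *Xbp1* it was 0.07 (-0.23 to 0.37), 0.02 (-0.28 to 0.32) and -0.22 (-0.52 to 0.08). These intervals include changes of about the size of the lesion effects. The paper reports a small set of genes whose lesion response differed in KO, found with a SAM time course and the time*genotype interaction in limma. SAM was not run here, and the reason for the unlike counts was not tested. In the limma fit used here the time*genotype interaction was called for 0 members and 0 genes (0%), and 0 members and 632 genes had an unadjusted p under 0.05 in its F test. *Nfil3*, which rose in WT and not in KO, was thus not called in this F test (adjusted p = 0.99998). It was not called in control DRGs either, although its brightest probe averaged 8.73 in WT and 4.71 in KO. In KO *Nfil3* lay near background with SDs of 1.40 to 2.05, whereas the pooled SDs of the members were 0.10 to 0.24. Its missed calls therefore do not measure the sensitivity for the members. For the members the width of the intervals above is the limit, so that the lack of a call does not show that the genotypes are alike.

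**Figure D4:**
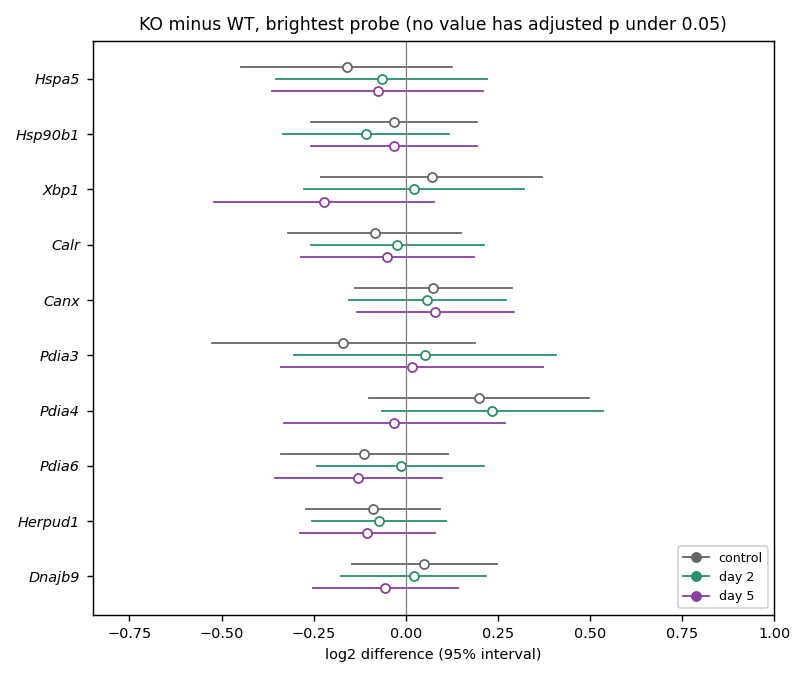
Log2 difference between KO and WT DRGs for each gene in control samples (grey), at day 2 (green) and at day 5 (purple); points are estimates of the brightest probe and lines 95% intervals. Every interval crosses 0, and the points lie between -0.22 and 0.23.

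Within a genotype fewer samples entered each comparison. In WT 0 of 10 members were called at day 2 (11.2% of all genes) and 1 at day 5 (13.7%), *Xbp1*, which rose like 6.39% of all genes, while 7.35% fell. In KO 1 was called at day 2 (11.9%), *Pdia6*, which rose like 5.51% of all genes, while 6.36% fell. At day 5 in KO 0 were called (12.7%). An unadjusted p under 0.05 by limma was found for 2 members at day 2 and 2 at day 5 in WT, and for 3 and 0 in KO. Of all 27398 genes it was found for 6253 and 6571 in WT, and for 6754 and 6403 in KO. Between day 5 and day 2 no member was called in WT (0.734% of all genes) or in KO (0.996%). There 0 and 1 members had an unadjusted p under 0.05, beside 2494 and 2753 of all genes. In KO all 10 members were lower at day 5 than at day 2, by 0.05 to 0.33, and in WT 8 of 10 were. The median difference of the members was -0.15 in KO and -0.11 in WT, beside -0.007 and -0.006 over all genes. The share of all genes that were lower is not given, and members measured in the same samples do not vary independently, so these counts are a description. This comparison shares its day 2 and day 5 samples with those above.

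The other genes of the pathway were taken from 4 lists that hold none of the 10 members. The UPR sensors and their transcription factors had the highest median of the 4 lists at both days. Of its 14 genes 6 rose and 1 fell at day 2, and 7 rose and 0 fell at day 5, which is 50% called at each day. Of all genes 22.3% and 23.1% were called, and of the 14555 genes well above background in all samples 35.0% and 36.9%. The list had a median log2 difference of 0.21 and 0.25, beside -0.02 and -0.03 over all genes. It is short and was chosen with earlier results of these data known, and no set test was run. The 3 highest at day 5 were *Trib3*, a pseudokinase induced by ATF4 and CHOP (1.31, SE 0.14, adjusted p = 5.08e-07), *Ddit3*, which encodes CHOP (0.84, SE 0.09, adjusted p = 6.93e-07), and *Atf4*, the factor translated after PERK or another eIF2α kinase is active (0.76, SE 0.09, adjusted p = 3.37e-06). These 3 belong to the eIF2α branch, which ER stress shares with other stresses. Of the ER sensors themselves *Ern1* (IRE1) rose at both days (0.26 and 0.25, adjusted p = 0.0289 and 0.0288) and *Atf6* at day 5 (0.26, adjusted p = 0.0371), while *Eif2ak3* (PERK) gave 0.28 and 0.30 without a call (adjusted p = 0.129 and 0.107).

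**Figure D5:**
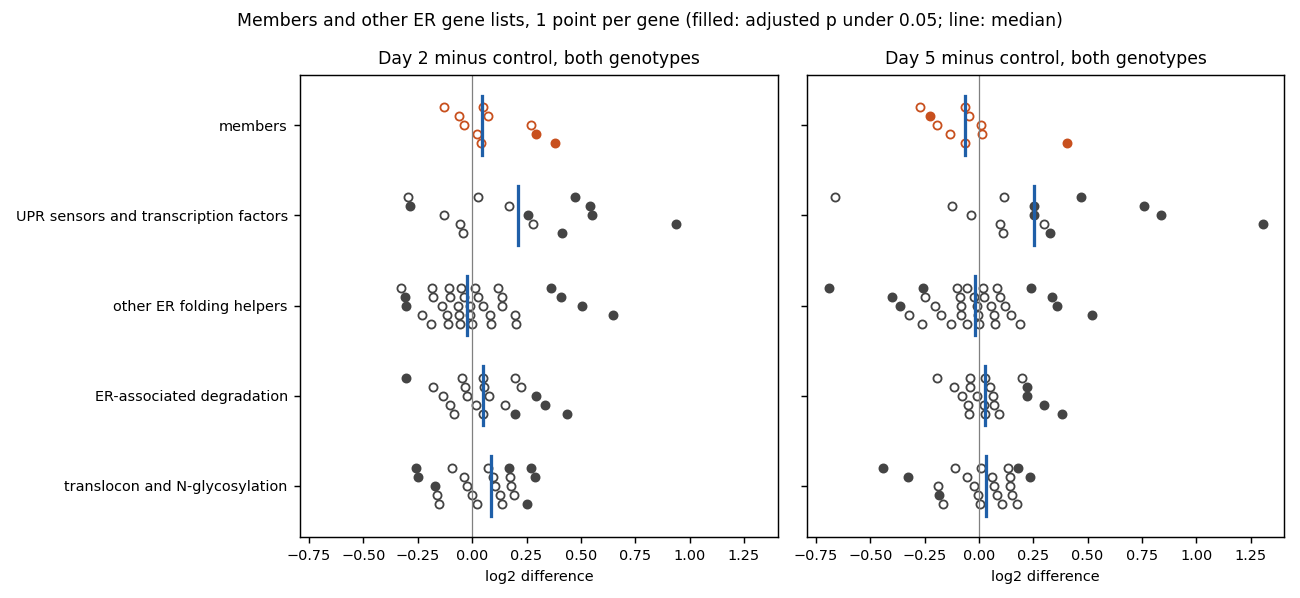
Log2 difference from control over both genotypes for the 10 members (orange) and for the genes of 4 other lists (dark grey) at day 2 (left) and day 5 (right); each point is a gene, filled at an adjusted p under 0.05, and the blue line is the median of the list. The UPR sensors and transcription factors have medians of 0.21 and 0.25, and the members 0.05 and -0.06.

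The shares called in the other 3 lists were 17.6% to 31.8% at day 2 and 20% to 23.5% at day 5, beside 22.3% and 23.1% of all genes, so that the counts are a description and not a result about these lists. Of 34 other folding helpers 4 rose and 2 fell at day 2, and 4 rose and 4 fell at day 5 (medians -0.02 and -0.02). At day 5 *Sdf2l1*, an ER luminal partner of the BiP co-chaperones (0.52, adjusted p = 4.27e-05), *Tmx1* (0.36) and *Pdia5* (0.34), both of the thioredoxin family, rose. *Clgn*, which encodes the calnexin relative calmegin (-0.69, adjusted p = 2.92e-05), *Tmx3* (-0.40) and the BiP nucleotide exchange factor *Sil1* (-0.36) fell. In ER-associated degradation 4 of 20 rose and 1 fell at day 2, and 4 rose and 0 fell at day 5. The ubiquitin-conjugating enzymes *Ube2g2* (0.38) and *Ube2j1* (0.30) and the retrotranslocation factor *Derl2* (0.22, adjusted p = 0.0470) were its highest at day 5. Of 22 genes of the translocon and of N-glycosylation 4 rose and 3 fell at day 2, and 2 rose and 3 fell at day 5. Those that rose at day 5 were the translocon subunits *Sec61b* (0.23) and *Sec61g* (0.18), and those that fell were the oligosaccharyltransferase subunits *Stt3b* (-0.44), *Stt3a* (-0.32) and *Rpn2* (-0.18). No gene of the 4 lists was called between KO and WT in any of the 3 comparisons.

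The genes whose 6 group means ran closest to a member were sought among 14554 other genes that were well above background in all samples, each centred on its own mean. For *Hspa5* the nearest were *4931428F04Rik*, *Tspan15*, *Pdia6*, *Zfp748* and the transcript *TC1699037*, with root mean square differences of 0.014 to 0.033 log2 units. *Pdia6* was thus 3rd of 14554, while the other members ranked from 489 (*Herpud1*) to 6669 (*Xbp1*). For *Xbp1* the nearest were *Kdm2b*, *Rchy1*, *Fndc3a*, *Ube2j2* and *Dap* (0.033 to 0.040), and the nearest member was *Pdia6* at rank 3465. This is a description over 6 group means, with no test.

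Markers of several cell types moved at the same days. All 7 macrophage markers rose at day 5 and 4 of 7 at day 2, and their summed intensity ranged from 1334 to 2568 in controls, from 1974 to 3805 at day 2 and from 4793 to 7390 at day 5. Of 8 neuronal markers 6 fell at day 2, and 4 fell and 1 rose at day 5, with summed intensities of 476325 to 651765 in controls, 432266 to 499710 at day 2 and 409618 to 523685 at day 5. Of the satellite glia markers 2 of 5 fell and 1 rose at each day, with sums of 36150 to 49414 in controls and 30346 to 45496 after the lesion. *Pmp22* alone of 6 Schwann cell markers rose, at day 2, with sums of 67800 to 110123 in controls and 70554 to 219108 after the lesion, and *Lum* alone of 5 fibroblast markers, at day 5. XBP1 is also known for its role in plasma cells. Among the B and plasma cell markers reported here *Sdc1* (2.96 at day 5) and *Cd79b* (0.75) rose, while *Cd79a* (-0.10), *Igj* (-0.83) and *Mzb1* (-0.07) were not called, and *Mzb1* was well above background in 9 of 24 samples. None of 4 skeletal muscle markers was called. Their median sum was 150 in WT and 153 in KO controls, 198 and 970 at day 2, and 363 and 223 at day 5. The highest sums were 4678 in KO day 2 and 10462 in KO day 5, against at most 1786 in controls, in a WT sample. The part of these cell types in the changes of *Xbp1*, *Pdia6* and *Hsp90b1* was not tested.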

How the data were processed

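RNA of L4 and L5 DRGs was measured on Agilent 4x44K arrays in 24 samples of 6 groups. Scans were read by the authors with Feature Extraction (10.7.3.1 per the file headers), and the deposited files hold foreground and background intensities per spot and channel, not normalized, with flags and the program's own processed signals. From these, the median background was taken off the mean foreground with Edwards correction, followed by quantile normalization over the 24 channels, as the study's methods state, and log2 transformation. Control spots and outlier spots (0.106% to 0.835% per sample) were dropped (417 missing probe values, 0 in members), and spots of 1 probe were averaged to 41174 probes. In limma (3.58.1, with statmod 1.5.0, under R 4.3.3), lmFit and eBayes estimated the 6 group means from all samples, with Benjamini-Hochberg adjustment over all probes and a threshold of 0.05. SE and intervals come from this model and cover the spread between samples, which the study calls independent replicates. The labels do not tell which samples share an animal. Samples that share an array had a consensus correlation of 0.27, which this model leaves out and the alternative with an array term includes. The number of samples limits the precision.

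Samples were grouped by their titles. KO control replicate 4 was kept as control, although another label gives day 5. The brightest probe on average stands for a gene, and other probes are given where they differ in a call or a sign. Named genes were the members, *Nfil3*, up to 3 genes called in each direction at day 5 per list, and the 5 nearest profiles of *Hspa5* and *Xbp1*; other list genes (*Ern1*, *Atf6*, *Eif2ak3*, *Pmp22*, *Lum*, the B cell markers and those with an ERSE) were named after their values were seen. The result of 1 marker gene is not reported here. The members and lists were chosen with earlier results of these data known. Probe positions are those of the array files (mm9). Upstream sequences and starts are from a RefSeq table of GRCm38.p6, used for sequence only. The scripts were tested on simulated data.

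The alternatives left out the background correction, used normexp (offset 50), took median in place of mean foreground, or started from the processed signals with each sample's 75th percentile as its scale. Others used loess with Aquantile, kept outlier spots, kept only probes that passed background in 4 or more samples, averaged the probes of a gene, or fitted an intensity trend. A term was added for dye, slide, array, replicate number, or array partner, meaning whether the other sample on an array had the same day. Each sample was also left out in turn.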

Additional observations from a re-analysis of the deposited data

Results flagged for a closer look

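In 3 of 60 groups of 4 samples (10 genes in 6 groups) a single value stood far from the others, with a gap to its nearest neighbour that took up most of the range of the group. For *Hspa5* in KO day 5, replicate 3 (12.02) was below the other 3 samples, of which the nearest was 12.38, and the gap was 0.893 of the range. For *Calr* in WT day 2, replicate 4 (11.96, nearest 12.21) stood below with a ratio of 0.890, and in WT day 5, replicate 3 (11.91, nearest 12.10) with a ratio of 0.854. Chance flags about 1 in 20 such groups, which is 3 of 60.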

How the results depend on the processing

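The calls of *Xbp1* at day 2 and day 5 and of *Pdia6* at day 2, over both genotypes, were made in all 14 other settings with all samples and in all 24 with 1 sample left out. *Xbp1* ranged from 0.34 to 0.42 at day 2 and from 0.35 to 0.43 at day 5 in those 14, and *Pdia6* from 0.22 to 0.33. The counts between KO and WT, of the interaction, between day 5 and day 2, and in KO at day 5 were 0 under every setting. In WT at day 2 the count of members called was 1 in place of 0 with normexp, the filter on dim probes, an intensity trend, and blocks for slide or for array partner (*Xbp1*) and with the processed signals (*Pdia6*). In KO at day 2 it was 0 in place of 1 with median foreground, dye as a covariate and array as a random block. At day 5 over both genotypes it was 1 in place of 2 with the processed signals, the mean over the probes of a gene and array as a random block. The cause of these changes was not tested.

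The labels give all groups the replicate numbers 1 to 4. Of 60 pairs of samples with the same number 26 deviated together with a correlation over 0.1, and 9 of 24 samples correlated best with a sample of their own number, so that the numbers were not taken to pair the samples. With the replicate block 4 members were called at day 5 over both genotypes, *Canx* and *Pdia3* in addition to *Xbp1* and *Hsp90b1*; no other count of members changed by more than 1.5 times. With 1 sample left out, the count was 0 to 1 in WT at day 2, 0 to 1 in WT at day 5, 0 to 2 in KO at day 2, 2 to 4 at day 2 over both genotypes and 1 to 3 at day 5 over both genotypes. *Xbp1* was called in WT at day 2 without WT control replicate 1 or KO day 2 replicate 2, and lost in WT at day 5 without WT control replicate 3. In KO at day 2 *Xbp1* was called too without KO day 2 replicate 2, and *Hspa5* too without KO day 2 replicate 3, which also added *Hspa5* and *Canx* to the calls at day 2 over both genotypes.

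Values near 0 changed sign, none of them called. *Hsp90b1* in WT at day 2 was 0.080 with the processed signals, 0.0029 with loess, 0.0086 with outlier spots kept, 0.081 with the mean over probes and 0.022 with slide as a block. With the processed signals *Hspa5* in WT at day 5 was 0.045 and *Hsp90b1* at day 2 over both genotypes 0.026. With the mean over probes the values over both genotypes were 0.025 for *Hsp90b1*, 0.00092 for *Canx* and 0.015 for *Dnajb9* at day 2, and 0.046 for *Calr* and -0.023 for *Pdia6* at day 5. That setting also gave 0.022 for *Canx* in WT at day 2, and -0.032 in WT and -0.015 in KO for *Pdia6* at day 5. With slide as a block *Hspa5* in WT at day 5 was 0.024, *Calr* and *Pdia3* at day 2 were -0.00085 and -0.0047, and *Xbp1* between KO and WT at day 2 was -0.031. With array as a random block *Pdia4* at day 2 was -0.0021. With 1 sample left out, the ranges that crossed 0 were -0.056 to 0.076 for *Hsp90b1* and -0.18 to 0.071 for *Pdia3* in WT at day 2, -0.084 to 0.058 for *Hspa5* and -0.030 to 0.10 for *Pdia6* in WT at day 5 and -0.021 to 0.055 for *Pdia6* in KO at day 5. Over both genotypes they were -0.018 to 0.11 for *Pdia3* and -0.026 to 0.075 for *Pdia4* at day 2, and -0.017 to 0.057 for *Hspa5*, -0.10 to 0.0071 for *Pdia4* and -0.011 to 0.054 for *Pdia6* at day 5. For *Xbp1* between KO and WT they were -0.023 to 0.19 in controls and -0.058 to 0.16 at day 2. Of 602 further member values with all samples 20 changed sign, and of 1032 with 1 sample left out 39 did.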
